A study of Mus musculus with 8 samples.

Results

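The calreticulins and calnexins are the lectin chaperones of the endoplasmic reticulum (ER), and 5 of them were measured in the olfactory mucosa of newborn mice: Calr, Calr3, Calr4, Canx and Clgn. The rows were found by gene symbol. Each gene had 1 row of its own, 5 of the 21789 rows with a single symbol in a table of 35557 rows, and no row with several symbols held a member. Calr4 was selected on measured values, because its mRNA lay far below the controls in the Emx2 knockout, so its knockout difference is given as a description with no test. The other 4 genes entered by family name and were tested.

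The samples were 8 preparations of olfactory mucosa from mice of postnatal day 1 on a mixed background of 129 and C57BL/6J, each hybridised to 1 Affymetrix Mouse Gene 1.0 ST array. The knockout group held 4 samples of genotype 123Cre:Emx2(fl/fl), which carry Cre recombinase and 2 floxed alleles of Emx2, a homeodomain transcription factor of olfactory sensory neurons (OSNs). The control group held 4 littermate samples in which at most 1 allele could recombine: replicates 1 and 4 were 123Cre:Emx2(fl/+), with Cre and 1 floxed allele, and replicates 2 and 3 were Emx2(fl/fl), with 2 floxed alleles and no Cre. Cre from the 123 promoter is expressed from the immature OSN stage onward. It recombines in only a part of the OSNs, so the knockout tissue still holds unrecombined OSNs. The study saw no reporter signal in other cells of the OSN layers, and describes no such check outside the olfactory epithelium. Values are log2 intensities per gene as deposited, and a difference is a knockout mean minus a control mean unless another contrast is named. The labels name no litter, sex or RNA pool, so the p-values reflect only how much these samples vary, which may be technical variation.

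Calreticulin (Calr), a soluble protein of the ER lumen, and calnexin (Canx), its membrane-bound relative, hold newly made glycoproteins that carry a single remaining glucose on their glycan and recruit the disulfide isomerase Pdia3 while the protein folds. Calmegin (Clgn) and Calr3 are relatives best known from the testis, where they are needed for surface proteins of sperm such as Adam3. Calr4 is a calreticulin known to be abundant in vomeronasal sensory neurons, the pheromone-sensing neurons of the nose. Whether the mRNAs of these relatives move together when Emx2 is deleted is the question the values below address.

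Promoter windows of 250 bases before to 50 bases after a transcript start, from RefSeq (GRCm38.p6), existed for 4 of the 5 genes, with 4 windows for Calr4 and 2 for Calr3, and no window for Clgn. The windows at the gene starts of Calr4, Calr and Canx are printed because they share a rare motif: the ER stress element, CCAAT and CCACG spaced by 9 bases (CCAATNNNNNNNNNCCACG on either strand), which in ER chaperone genes is known as the site of the factors NF-Y and ATF6. Capitals mark both ends of the element.
Calr4, chr4:109218163-109218462, plus strand: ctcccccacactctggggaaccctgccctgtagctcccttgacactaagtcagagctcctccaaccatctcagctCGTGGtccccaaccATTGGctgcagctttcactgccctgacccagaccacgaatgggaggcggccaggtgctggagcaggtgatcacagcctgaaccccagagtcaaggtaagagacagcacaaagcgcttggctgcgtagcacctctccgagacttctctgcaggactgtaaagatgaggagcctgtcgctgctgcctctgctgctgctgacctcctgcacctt
Calr, chr8:84846882-84847181, minus strand: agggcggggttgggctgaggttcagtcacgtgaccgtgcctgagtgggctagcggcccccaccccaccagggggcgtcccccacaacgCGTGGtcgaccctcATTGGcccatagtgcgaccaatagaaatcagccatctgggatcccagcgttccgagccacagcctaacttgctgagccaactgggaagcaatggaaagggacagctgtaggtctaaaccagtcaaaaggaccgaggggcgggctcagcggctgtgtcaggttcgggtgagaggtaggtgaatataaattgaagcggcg
Canx, chr11:50325624-50325923, minus strand: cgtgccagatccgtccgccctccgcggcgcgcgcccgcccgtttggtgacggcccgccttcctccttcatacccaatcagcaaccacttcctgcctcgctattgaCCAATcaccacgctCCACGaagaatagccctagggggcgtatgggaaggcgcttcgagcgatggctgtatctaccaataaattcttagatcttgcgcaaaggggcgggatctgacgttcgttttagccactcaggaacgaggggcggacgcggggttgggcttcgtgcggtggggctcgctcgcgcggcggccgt
The element starts at base 76 of the Calr4 window and base 89 of the Calr window, on the strand opposite to the gene, and at base 106 of the Canx window on the gene's own strand. Among 32851 such windows of the RefSeq table, 39 (0.119%) hold it. The 2 Calr3 windows and the other 3 windows of Calr4 do not. The Calr4 window resembles the other two less in its CpG content, with 7 CG pairs against 17 for Calr and 35 for Canx, at a GC content of 59.3%, 60.3% and 63.0%. The homeodomain core TAAT, present in 58.0% of all windows on either strand, is in none of the 3 printed windows. A further Calr4 window, at chr4:109234235-109234534, holds it at 2 places, and the Calr3 windows hold it at 3 and 5 places, and the window with 5 also holds the palindrome TAATTA (5.29% of all windows), in which the core is read on both strands. These matches describe the windows and say nothing of binding.

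Emx2 mRNA was lower in every knockout sample, at 9.80, 9.86, 10.01 and 9.93, against a control mean of 10.84 ± 0.12 (SD, n = 4) with a lowest control of 10.72, a difference of -0.94 (SE 0.0817, limma adjusted p = 0.0014) or a decrease of 48.0%. The lowest root mean square difference between any pair of arrays was 0.248, so no pair of arrays held the same values. Knockout replicate 2 stood apart, with a mean correlation with the other arrays of 0.978 against 0.987 to 0.990 for the rest and an array weight of 0.17. Sex was read from Y-linked rows: both 123Cre:Emx2(fl/+) controls and knockout replicate 3 read as female and the rest as male, although knockout replicates 1 and 4 had Xist at 9.15 and 9.93, between the male controls (6.85 and 7.29) and the female samples (12.54 to 13.07). Across all 23410 rows with a symbol, limma called 84 in the knockout (0.359% of rows) at an adjusted p under 0.05, of which 82 were lower (0.35%; 60 of 77 after centring on mature OSN genes), 1427 rows (6.1%) had an unadjusted p under 0.05, and 595 rows (2.54%) had all 4 knockouts below all 4 controls.

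Calr4 was the member with the large difference. The control samples, replicates 1 to 4, measured 9.21, 9.36, 9.07 and 9.22, a mean of 9.22 ± 0.12 (SD, n = 4). The knockout samples measured 7.02, 7.98, 6.89 and 6.70, a mean of 7.15 ± 0.57 (SD, n = 4). The groups did not overlap, and 1.09 log2 units lay between the lowest control and the highest knockout. The difference of -2.07 leaves 23.8% of the control level, and 10 of the 23410 rows lay lower. The spread was wider in the knockouts than in the controls: 3 knockouts lay within 6.70 to 7.02, and replicate 2, the array that stood apart, was the highest. Without that array the difference was -2.35. The lower quartile of all rows lay at 6.45 to 6.62 on these arrays and the table gives no detection call, so how much of the remaining knockout signal is Calr4 mRNA was not tested.

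Calr4 averaged the same value in both kinds of control. The 123Cre:Emx2(fl/+) controls (9.21 and 9.22) and the Emx2(fl/fl) controls (9.36 and 9.07) both averaged 9.22. The difference between the control genotypes, fl/+ minus fl/fl, was 0.00 with a 95% confidence interval of -0.87 to 0.86 (limma adjusted p = 0.999). That interval is wide because each genotype has 2 samples, and genotype and sex cannot be told apart among the controls. Against either control genotype alone the knockout difference was -2.07. The knockout read as female, at 6.89, lay between those read as male. Of those, replicates 1 and 4 had Xist between the male controls and the female samples, so no conclusion on sex is drawn.

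**Figure D1:**
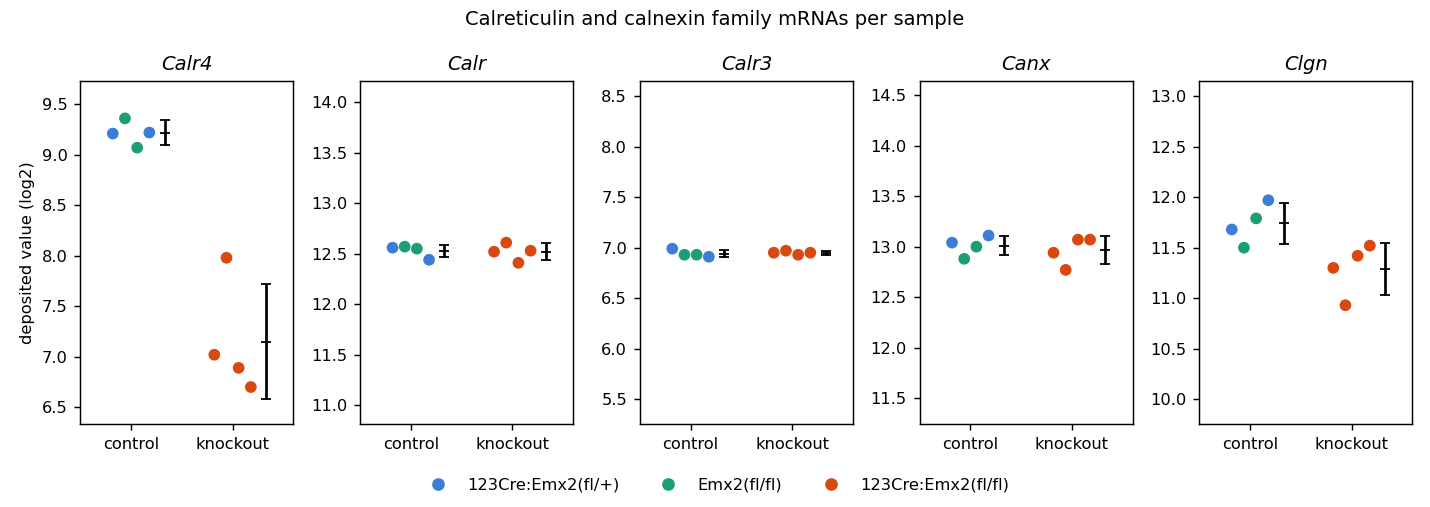
Deposited log2 values of the 5 mRNAs in each sample, controls at left and knockouts at right in each panel, coloured by genotype, with the group mean ± SD (n = 4) beside the points; every panel spans the same number of log2 units. The Calr4 knockouts (6.70 to 7.98) lie below all controls (9.07 to 9.36), the Clgn groups overlap by 0.02, and the groups of Calr, Calr3 and Canx overlap.

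Clgn, the calmegin gene, had the next largest difference. Its controls measured 11.68, 11.50, 11.79 and 11.97, a mean of 11.74 ± 0.20 (SD, n = 4). Its knockouts measured 11.30, 10.93, 11.42 and 11.52, a mean of 11.29 ± 0.26 (SD, n = 4). The groups overlapped by 0.02, where the highest knockout passed the lowest control. The difference was -0.44 (SE 0.144, 95% confidence interval -0.77 to -0.12), or 73.5% of the control level, and it did not pass the adjustment over all rows (limma unadjusted p = 0.0135, adjusted p = 0.66). It was -0.53 against the 123Cre:Emx2(fl/+) controls and -0.35 against the Emx2(fl/fl) controls. Over the alternatives tried it lay between -0.53 and -0.28, with adjusted p from 0.164 to 1.0.

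Calr and Canx, the general chaperones, did not pass the test. Calr measured 12.56, 12.57, 12.55 and 12.44 in controls and 12.52, 12.61, 12.41 and 12.53 in knockouts, a difference of -0.01 (SE 0.0697, 95% confidence interval -0.17 to 0.15, limma adjusted p = 1.0). Canx measured 13.04, 12.88, 13.00 and 13.11 in controls and 12.94, 12.77, 13.07 and 13.07 in knockouts, a difference of -0.04 (SE 0.0901, 95% confidence interval -0.25 to 0.16, limma adjusted p = 1.0). In both genes the groups overlapped.

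Calr3, the testis calreticulin, measured 6.99, 6.93, 6.93 and 6.91 in controls and 6.95, 6.97, 6.93 and 6.95 in knockouts. The difference was 0.01 (SE 0.0579, 95% confidence interval -0.12 to 0.14, limma adjusted p = 1.0). Its row was among the dimmest 30% of rows, the only member there, so 4 of the 5 passed a filter on low values, and for a dim row the range over the samples may say little about the mRNA. Of the 4 relatives, 0 were called in the knockout contrast by limma or by the methods' t-test, and 1, Clgn, had an unadjusted p under 0.05 by either.

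The samples carry the numbers 1 to 8 in their titles, and values across the whole table moved with them: of 23410 rows, 7115 (30.4%) had an unadjusted p under 0.05 between numbers 5 to 8 and 1 to 4 with the knockout held as a term, although 0 (0.0%) were called by limma. Each set held 2 knockouts and 2 controls. What the numbers stand for is not given by the labels. For the later minus the earlier numbers, Clgn differed by 0.32 (SE 0.0983, 95% confidence interval 0.10 to 0.54, limma adjusted p = 0.0917), and Canx by 0.16 (SE 0.0753, adjusted p = 0.196). Calr4 differed by -0.42 (SE 0.204, 95% confidence interval -0.89 to 0.04, adjusted p = 0.197). Calr (-0.08, adjusted p = 0.437) and Calr3 (-0.03, adjusted p = 0.725) had smaller differences. None of the 5 passed the threshold.

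The knockout difference of Calr4 was -1.79 among title numbers 1 to 4 and -2.35 among numbers 5 to 8. Its sign there was fixed in advance, because the groups of Calr4 did not overlap. Clgn differed by -0.48 and -0.41 in the same sets. With the title numbers as a term, the adjusted p of Clgn was 0.164. In the controls alone, 0 rows (0.0%) were called between the 123Cre:Emx2(fl/+) and Emx2(fl/fl) genotypes by limma, with 478 rows (2.04%) at an unadjusted p under 0.05. The 4 relatives differed there by -0.06 (Calr), 0.02 (Calr3), 0.13 (Canx) and 0.18 (Clgn), all with an adjusted p of 0.997.

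**Figure D2:**
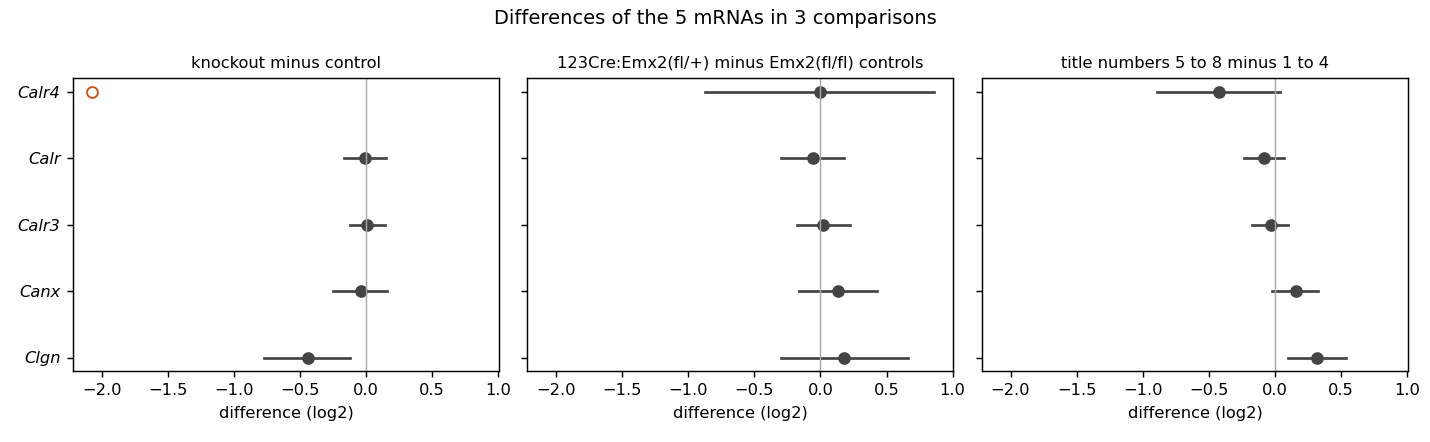
Log2 differences of the 5 mRNAs in 3 comparisons: knockout minus control, the 2 control genotypes, and the later against the earlier title numbers. Filled points are limma estimates with 95% confidence intervals, and the open point is the Calr4 knockout difference (-2.07), given without an interval because Calr4 was selected on it; the Clgn interval excludes 0 in the knockout and title number comparisons, and neither passes the adjustment.

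The enzymes and lectins that work with calnexin and calreticulin did not pass the test. All 15 genes fixed for that cycle were measured, and limma called 0 of them (0 at an unadjusted p under 0.05, and by the methods' t-test 0 called and 1 at an unadjusted p under 0.05). Their differences ran from -0.14 to 0.16 with a median of -0.04, where the median of all rows was 0.0041. After centring on mature OSN genes the list median was 0.13, and that of all rows 0.17. Pdia3, the disulfide isomerase recruited by both chaperones, differed by -0.10, Ganab, the glucosidase II subunit that trims the glycan, by -0.11, and Uggt1, the folding sensor that adds the glucose back, by -0.09. Edem2, which helps send misfolded glycoproteins to degradation, stood at the upper end with 0.16, and Erlec1, an ER lectin of the same disposal route, at the lower end with -0.14.

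Other ER folding factors and genes of the ER stress response gave the same count. The median difference of the 24 was -0.07, limma called 0 and gave 1 gene an unadjusted p under 0.05, and the methods' t-test called 0 with 2 at an unadjusted p under 0.05. The gene with the low p was Dnajb11, an Hspa5 cochaperone, at -0.20 (limma unadjusted p = 0.00922, adjusted p = 0.558). Dnajb9, another cochaperone of Hspa5, differed by -0.23, Herpud1, a part of ER-associated degradation, by -0.18, and Ero1a, an ER oxidase, by -0.17. Hspa5, the ER Hsp70 chaperone, differed by -0.13, and Xbp1, a transcription factor of the ER stress response, by 0.05.

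The ER stress element shared by Calr4, Calr and Canx gives another set of genes, chosen after the values were seen. The windows with the element belong to 37 genes, of which 21 were measured. Among them are Hspa5, Hsp90b1, Pdia6, Syvn1, Dnajc3, Creld2 and Derl3, which are ER chaperones or parts of ER-associated degradation. The set also holds genes of other kinds, such as Zfp57, Adcy3, Acacb and Olfr59, and the members Calr and Canx. Limma called 0 of the 20 other than Calr4, 11 of which lay below 0, with a median difference of -0.02. The exception at an unadjusted p under 0.05 was Ero1b, an ER oxidase that keeps disulfide isomerases active, at -0.37 (SE 0.0714, limma adjusted p = 0.12). Calr4 lay at -2.07 among them, and all others lay between -0.37 and 0.23.

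Calreticulin also stores calcium in the ER lumen. Of 13 genes of the calcium store, 12 were measured and limma called 0 (0 at an unadjusted p under 0.05, and by the methods' t-test 0 called and 2 at an unadjusted p under 0.05), with a median difference of 0.02. The 4 largest differences were those of Casq1 (0.14) and Casq2 (0.13), the calcium-binding calsequestrins of muscle, Rcn2 (-0.13), a calcium-binding protein of the ER lumen, and Itpr2 (0.10), a calcium release channel. Atp2a2, the calcium pump of the ER, differed by -0.07. The 7 sperm proteins and chaperones that depend on or work with Clgn and Calr3 in the testis had a median of 0.02 with 0 called by either test and 0 at an unadjusted p under 0.05. Of them Ly6k, a sperm surface protein, differed by 0.24, Adam2 by 0.08, Adam1a by -0.06, Adam3 by 0.06 and the testis disulfide isomerase Pdilt by -0.01.

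Proteins that carry olfactory receptors to the cell surface held no called gene either. Of 7 genes 6 were measured, all 6 lay below 0 with a median of -0.10 (0.07 after centring on mature OSN genes), and limma called 0, with 1 at an unadjusted p under 0.05 by limma and by the methods' t-test. That gene was Rtp2, a receptor-transporting protein of mature OSNs, at -0.40 (SE 0.078, limma adjusted p = 0.128). It passed the threshold with array weights (-0.46, limma adjusted p = 0.00738) and without knockout replicate 2 (-0.45, limma adjusted p = 0.0362). Reep5, an ER-shaping protein, differed by -0.24, Ric8b, a G protein chaperone, by -0.11, Reep1 by -0.08, and Rtp1, the relative of Rtp2, by -0.04.

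**Figure D3:**
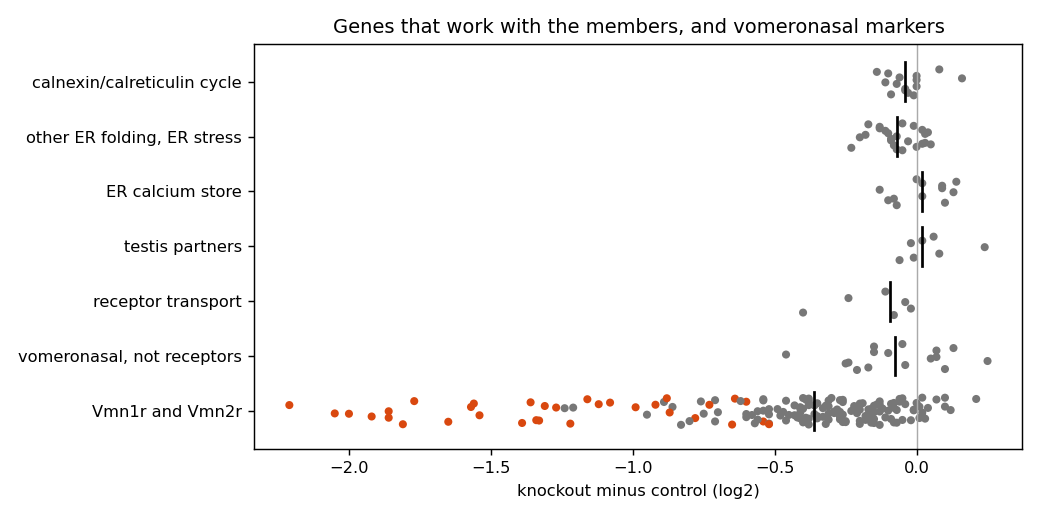
Knockout minus control differences (log2) of single genes in 7 lists, with the median of each list as a black bar and genes with a limma adjusted p under 0.05 in orange. The 5 upper lists lie near 0 with no gene called. Of the 167 Vmn1r and Vmn2r genes 33 are called, all lower, where 0.35% of all rows are called lower.

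Because Calr4 is known from vomeronasal neurons, markers of these cells are given beside it. The lists were chosen with earlier results of these data known, so their counts are a description and no independent support. Of 167 vomeronasal receptor genes, 155 lay below 0 with a median of -0.36, and 85 had all 4 knockouts below all 4 controls. Limma called 33 lower and 0 higher (the methods' t-test called 6). Of all rows, 2.54% had all 4 knockouts below all 4 controls, and limma called 0.35% lower. The 4 receptors with the largest differences were Vmn2r113 (-2.21), Vmn1r71 (-2.05), Vmn1r27 (-2.0) and Vmn1r89 (-1.92), near the size of the Calr4 difference. The mean of the 118 Vmn1r rows was 5.63, 5.65, 5.56 and 5.80 in controls and 5.18, 5.25, 5.12 and 5.06 in knockouts. The mean of the 49 Vmn2r rows was 5.69, 5.78, 5.72 and 5.95 in controls and 5.29, 5.37, 5.30 and 5.22 in knockouts. All these means lay below the lower quartile of all rows on these arrays (6.45 to 6.62), and the table gives no detection call. Both receptor means separated the groups without overlap, and in both, as for Calr4, replicate 2 was the highest knockout and replicate 4 the lowest. Summed on the linear scale, the receptor rows came to 10800 to 13200 in controls and 6780 to 7950 in knockouts, and their part in the Calr4 result was not tested.

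Vomeronasal markers other than receptors had differences nearer to 0. Of 17 fixed genes 16 were measured, limma called 0 (4 at an unadjusted p under 0.05, and by the methods' t-test 0 called and 3 at an unadjusted p under 0.05), 10 lay below 0, and the median difference was -0.07. The share of all rows at an unadjusted p under 0.05 was 6.1%. Their summed level was 15600 to 16600 in controls and 14700 to 16300 in knockouts, which overlap. That sum rests mostly on the bright rows of Gnao1, Gnai2 and Meis2, with control means of 12.98, 12.18 and 11.13. The H2-M and Fpr-rs rows had control means of 4.39 to 7.28, where the lower quartile of all rows lay at 6.45 to 6.62. How well the sum or the dim rows follow the number of vomeronasal neurons was not tested. H2-M10.3, a nonclassical MHC gene of vomeronasal neurons, was the lowest at -0.46 (limma adjusted p = 0.108), while its relative H2-M10.1 was at 0.25 (adjusted p = 0.665). Fpr-rs6, a formyl peptide receptor, differed by -0.25 (adjusted p = 0.81) and Tfap2e, a transcription factor of basal vomeronasal neurons, by -0.24 (adjusted p = 0.979). Gnao1, a G protein subunit of basal vomeronasal neurons that other neurons express too, differed by -0.17 (adjusted p = 0.785), and Gnai2, its counterpart in apical vomeronasal neurons, by 0.07 (adjusted p = 1.0). The row of Trpc2, the channel that defines these neurons, holds several symbols and was not used. In bulk tissue, fewer cells of a type and less RNA per cell cannot be told apart. Whether Cre recombined Emx2 in vomeronasal neurons was not tested.

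**Figure D4:**
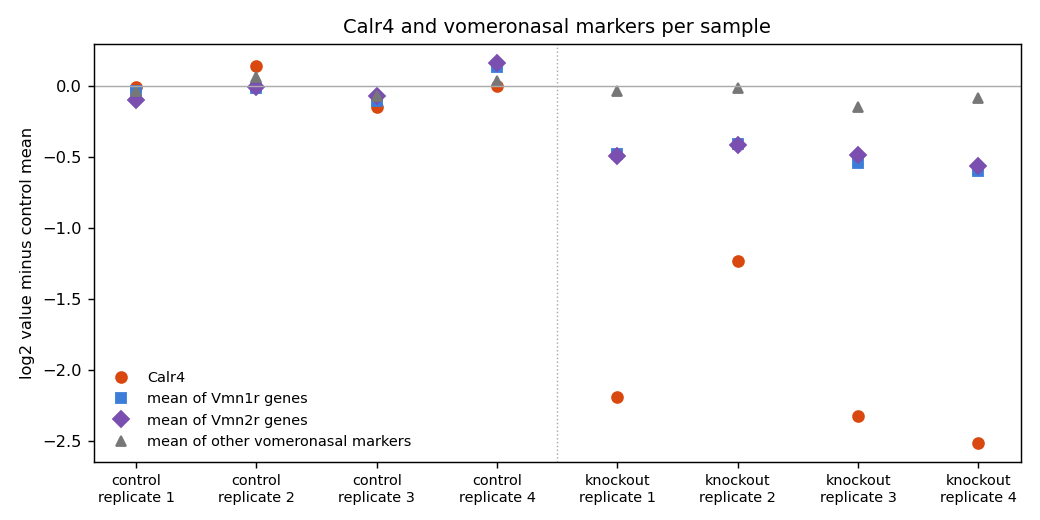
Log2 values of Calr4 and the mean log2 values of the 118 Vmn1r genes, the 49 Vmn2r genes and the 16 other vomeronasal markers in each sample, each minus its own mean over the 4 controls (y axis). In the knockouts Calr4 lies lowest in every sample, both receptor means lie below every control, and the other markers stay near 0.

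Markers of OSNs had medians below 0. Of 18 mature OSN genes 17 were measured, with a median difference of -0.14, 0 called by limma and 5 at an unadjusted p under 0.05 (6.1% of all rows), and their summed level was 70400 to 76600 in controls and 64600 to 70200 in knockouts. The 15 immature OSN genes had a median of -0.10, with 0 called and 4 at an unadjusted p under 0.05, and summed levels of 50000 to 54700 and 47600 to 50700. Below 0 lay 15 of the mature and 13 of the immature OSN genes. All 4 knockouts lay below all 4 controls in 5 mature and 2 immature OSN genes, and above them in 0. Of all rows, 2.54% had all 4 knockouts below all 4 controls. The study reports unaffected numbers of mature and immature OSNs after this deletion. Clgn, at -0.44, lay below the median of both lists. It was within the range of the mature genes (-0.52 to 0.27) and below that of the immature genes (-0.35 to 0.12). Respiratory ciliated cell genes were above 0 in 9 of 9 cases (median 0.23, summed level 11100 to 13100 in controls and 12300 to 15600 in knockouts), and muscle genes in 7 of 7 (median 0.10, 1200 to 1460 and 1340 to 1550). Brain genes had a median of -0.31 over 8 genes (2080 to 3250 and 1770 to 2290). Limma called 0 genes in these 3 lists, with 2 ciliated cell genes, 2 muscle genes and 1 brain gene at an unadjusted p under 0.05. The part of these cell types in the Calr4 and Clgn values was not tested.

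The rows whose pattern over the 8 samples was most like that of Calr4 were taken by Pearson correlation, as a description. The closest was Hs6st3, a heparan sulfate sulfotransferase, with r = 0.998 and a difference of -0.62. Then came Gm36028 (r = 0.994, difference -1.90) and Zpld2 (r = 0.990, difference -1.98), which differed about as much as Calr4. Of the first 10 rows, 5 were Vmn1r genes, a family with 118 genes among the 21789 rows with a single symbol. They were Vmn1r220 (r = 0.987, difference -1.22), Vmn1r38 (r = 0.983, difference -1.54), Vmn1r87 (r = 0.981, difference -1.31), Vmn1r84 (r = 0.979, difference -0.89) and Vmn1r89 (r = 0.974, difference -1.92). The remaining rows of the 10 were Gm14496 (r = 0.980, difference -0.95) and Rnf185. Rnf185, an ER membrane ubiquitin ligase, had r = 0.979 with a difference of -0.24. All 8 samples share the knockout difference, on which Calr4 was selected, so such r values rest largely on the separation of the groups. After the group means were taken off, the closest row was Corin, a membrane protease, with r = 0.998 and a knockout difference of -0.02. Next came Defb25 (r = 0.995), Edar (r = 0.993), Sim2 (r = 0.990) and Batf (r = 0.987). None of these 5 is a vomeronasal receptor, but receptors are 167 genes among the 21789 rows, so their absence here says little. The correlation of Calr4 with the mean of the Vmn1r rows was 0.963 over the 8 samples and 0.629 with group means taken off, and with the mean of the Vmn2r rows 0.946 and 0.473.

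Within the groups the relatives ran in different directions beside Calr4. Knockout replicate 2 was the highest knockout for Calr4 (7.98), Calr (12.61) and Calr3 (6.97), and the lowest for Clgn (10.93) and Canx (12.77). Control replicate 2 was the highest control for Calr4 (9.36) and Calr (12.57), and the lowest for Clgn (11.50) and Canx (12.88). Over the 8 samples with group means taken off, the correlation with Calr4 was -0.844 for Clgn, -0.841 for Canx, 0.562 for Calr and 0.333 for Calr3. Knockout replicate 2, the array that stood apart (array weight 0.17), lay farthest from its group mean for Calr4 (7.98 against 7.15). All r values with group means taken off therefore depend strongly on that array, and none was taken without it.

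The genes next to Calr4 on chromosome 4 were looked at beside it. In the order of the RefSeq table, Osbpl9 (-0.16), Nrd1 (-0.11) and Rab3b (-0.12) precede it and Eps15 (-0.11), Ttc39a (0.32) and Rnf11 (-0.15) follow it. These 6 were chosen by position after the values were seen, limma called 0 of them, and 1, Ttc39a, had an unadjusted p under 0.05 (0.0133, adjusted p = 0.66).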

How the data were processed

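Total RNA of 8 olfactory mucosa samples was prepared with TriReagent, made into biotinylated cRNA and hybridised to Affymetrix Mouse Gene 1.0 ST arrays. The authors deposited log2 values per transcript cluster. Expression Console by Affymetrix is the tool in the submitters' processing notes; neither its version nor its normalization is given in the sources consulted. The values were used as deposited. Rows were named from the platform annotation: 21789 had 1 symbol, 1621 several and 12147 none. The gene numbers of all 5 members matched RefSeq.

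All 23410 rows with a symbol were fitted with limma 3.58.1 (lmFit and eBayes) in R 4.3.3, with Benjamini-Hochberg adjustment and a threshold of 0.05. A fit of knockout and control tested the 4 relatives, a fit of 3 genotype groups the control genotypes, and a fit of knockout and title numbers the numbers 5 to 8 against 1 to 4. Up to 4 genes with the largest absolute differences were named in each list. Uggt1, Hspa5, Xbp1, Atp2a2, Pdilt, Rtp1, Gnao1, Gnai2 and the genes with the ER stress element were named for their roles after values were seen. Likeness to Calr4 was the Pearson correlation over the 8 samples, given for the first 10 rows, and for the first 5 after group means were taken off. The members and gene lists were chosen with earlier results of these data known. The script was tested on simulated data. Alternatives were centring on the 17 measured mature OSN genes listed here (the study's methods describe such a step with another, longer gene list) or on array medians, quantile normalization, the methods' t-test, filters, trend and robust fitting, array weights, title numbers or sex as terms, either control genotype alone, and leaving out each sample. The number of arrays limits the precision.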

Additional observations from a re-analysis of the deposited data

Results flagged for a closer look

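Among the 36 sets of 4 samples looked at (the groups' values of members and gene lists), 1 held a sample that stood apart by Dixon's ratio. Calr in control replicate 4 was 12.44 against 12.55 to 12.57 in the other controls, a ratio of 0.854 that passes the critical value at the 95% level. Chance sets apart about 1 in 20 such sets. The Calr knockout samples, at 12.41 to 12.61, span that value.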

How the results depend on the processing

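The Calr4 difference lay between -2.35 and -1.90 in 20 alternatives, and 0 of the 4 relatives were called in any of them. Calr4 was selected on this difference, so its range is a description. The methods' t-test, the row filters, trend and robust fitting and the title numbers as a term cannot change a difference of these group means. It was -2.07 in each of them. The study's methods state that each litter that gave knockouts also gave controls. No paired analysis was possible, because the labels name no litter. They give no replicate numbers either, and those used here follow the order of the deposited samples. Differences near 0 changed sign without passing the threshold. In the knockout contrast, Calr became 0.15 and Canx 0.12 with centring on mature OSN genes, Calr 0.02 against the fl/+ controls alone, Canx 0.02 against the fl/fl controls alone and 0.02 with array weights, and Calr3 -0.02 with quantile normalization. Leaving out a sample gave -0.04 to 0.02 for Calr (0.00 without control replicate 2, 0.02 without knockout replicate 3) and -0.09 to 0.02 for Canx (0.02 without knockout replicate 2). Between control genotypes, Calr4 became 0.00 with quantile normalization or OSN centring and 0.33 with sex as a term, Calr 0.08 and Canx -0.01 with sex, and Calr3 -0.04 with quantile normalization and 0.00 with array medians. Leaving out a sample there gave -0.15 to 0.14 for Calr4 (0.01 without control replicate 1, 0.14 without control replicate 2) and -0.02 to 0.07 for Calr3 (-0.02 without control replicate 1). Centring on mature OSN genes moved the median of all rows from 0.0041 to 0.17, and the list medians to 0.13 (lectin cycle), 0.10 (ER folding), 0.19 (calcium store), 0.18 (testis) and 0.07 (receptor transport). Between title numbers 1 member, Clgn, was called with array weights (0.27, limma adjusted p = 0.0417). Of the list genes around the members 1, Rtp2, was called with array weights and without knockout replicate 2 (0 to 1 over the samples left out). The 84 rows called in the knockout became 28 by the methods' t-test, 27 without the dimmest 30% of rows, 224 with array weights, 32 and 25 against the fl/+ or fl/fl controls alone, and 46 to 132 with a sample left out (132 without knockout replicate 2). Those called between title numbers went from 0 to 3718 with array weights and 2407 without control replicate 1, which also gave 1 row between control genotypes. The causes were not tested.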
